A study of Mus musculus with 8 samples.

Results

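Tmem54, Gldn, D17H6S56E-5, Sprr1a and Elapor1 are 5 genes that stood among the largest rises in mouse liver tumors. They were chosen because their log2 values were far higher in tumors than in adjacent liver, so that difference is given below as a description with no test. They are 5 of the 19938 genes that had a probe with a single gene symbol on the array, and each was measured by 1 probe. In the order of all mean differences Tmem54 ranked 7, Gldn 10, D17H6S56E-5 11, Sprr1a 12 and Elapor1 14.

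The samples were 4 tumors labelled as hepatocellular carcinoma and 4 pieces of adjacent normal liver from the same 4 male C57BL/6J mice, called M24, M48, M50 and M60. The mice had been injected, when 2 to 3 months old, with a vector built from adeno-associated virus (AAV), and were examined 18 months later, so the adjacent tissue carries that exposure too. The labels do not say what the vector encoded, and liver of untreated mice was not analysed here. RNA was hybridised to 1 expression array per sample, and the number of arrays limits the precision. Both groups had the markers of hepatocytes: 7 of 8 listed markers were measured, and all lay far above the filter value. Of these 7, 1 rose (Apoa1, by 0.32) and 1 fell (Hnf4a, by 0.35), beside 16.3% higher and 15.7% lower over all tested genes.

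Gldn has CRG-L2 and Crgl2 among its synonyms in RefSeq. It encodes gliomedin, a protein with collagen-like and olfactomedin domains that Schwann cells of peripheral nerve release. There it binds neurofascin and NrCAM and gathers sodium channels at the nodes of Ranvier. Sprr1a encodes a small proline-rich protein that transglutaminases cross-link into the cornified envelope of skin and other squamous epithelia, and it is also known to be induced in injured neurons of rodents. Elapor1 encodes a transmembrane protein of endosomes and lysosomes. It was described as an estrogen-induced gene in human endometrium and as a target of the transcription factor Mist1 in enzyme-secreting cells of the mouse stomach. Tmem54 encodes a predicted membrane protein of little-known function. D17H6S56E-5, with the synonym G7e in RefSeq, is a protein-coding gene of the class III region of the major histocompatibility complex (MHC), between the complement and tumor necrosis factor genes.

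In RefSeq annotation of mouse assembly GRCm38.p6, Tmem54 lies at chr4:129105529-129111626, Gldn at chr9:54286486-54341777 and D17H6S56E-5 at chr17:34996678-35000774. Sprr1a lies at chr3:92483954-92485881 and Elapor1 at chr3:108455679-108536745. RefSeq promoter sequences gave 250 bases before a transcript start of each gene, which were searched on both strands for 7 motifs picked after the sequences had been seen. That start is the 5′ end of the annotated gene for Gldn and Sprr1a and lies 1 base inside the gene for Tmem54. For D17H6S56E-5 28 of the 250 bases, and for Elapor1 204 of them, lie inside the gene as annotated, so the search says little of the sequence before the annotated gene of Elapor1. The AP-1 motif TGANTCA, bound by Jun and Fos family proteins, was found before 3 of the 5 genes, and 6.85% of 27025 mouse genes had it in a stretch of the same length. These 3 stretches are shown 5′ to 3′ because they hold this motif, in capitals, which of the 7 matched the most of the 5 genes. The stretches of D17H6S56E-5 and Elapor1 had no match to it.
Sprr1a, chr3:92485882-92486131, minus strand: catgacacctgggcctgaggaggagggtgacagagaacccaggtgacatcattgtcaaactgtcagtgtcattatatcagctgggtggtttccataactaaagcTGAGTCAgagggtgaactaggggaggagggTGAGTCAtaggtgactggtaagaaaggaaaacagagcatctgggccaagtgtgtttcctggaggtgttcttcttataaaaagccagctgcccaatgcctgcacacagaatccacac
Gldn, chr9:54286236-54286485, plus strand: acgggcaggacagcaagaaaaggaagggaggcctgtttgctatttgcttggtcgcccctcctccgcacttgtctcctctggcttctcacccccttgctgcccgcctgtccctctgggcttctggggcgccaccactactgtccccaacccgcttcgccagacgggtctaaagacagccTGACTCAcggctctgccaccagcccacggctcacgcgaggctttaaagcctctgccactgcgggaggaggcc
Tmem54, chr4:129105280-129105529, plus strand: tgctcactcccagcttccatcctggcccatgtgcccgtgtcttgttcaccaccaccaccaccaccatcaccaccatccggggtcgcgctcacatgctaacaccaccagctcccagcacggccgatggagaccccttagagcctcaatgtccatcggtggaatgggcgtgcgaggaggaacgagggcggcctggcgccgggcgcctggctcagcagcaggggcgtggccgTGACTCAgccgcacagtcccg

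Sprr1a held 2 copies of the AP-1 motif, which began 146 and 116 bases before its start, and 0.329% of all genes had 2 or more. The copy of Gldn began 72 bases and that of Tmem54 21 bases before the start. The antioxidant response motif TGACNNNGC, found in 10.1% of genes, overlapped the AP-1 motif of Tmem54 and the farther one of Sprr1a. TATAAA was found 43 bases before the start of Sprr1a and in 13% of all genes, and Tmem54 had a match to the TEAD motif GGAATG (12.6% of genes) and to the GC box GGGCGG (33%). The cyclic AMP motif TGACGTCA and the STAT motif TTCNNNGAA matched before 0 of the 5 genes, against 1.6% and 7.14% of all genes. The stretches of Tmem54, Gldn, D17H6S56E-5 and Elapor1 had 63.6% to 70.4% G and C and that of Sprr1a had 49.6%, beside a median of 52% over all genes. A match of letters is a description and does not show that a factor was bound.

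All values below are the expression values as the authors deposited them, read as log2 from their range because no log base is stated, so a difference of 1 is taken as a 2-fold change, and differences are tumor minus adjacent in the same mouse. Genes whose mean over the 8 arrays was under 4.597, the lowest 40%, were left out of testing, which left 11963 genes. The left-out genes averaged 3.53. Levels are compared within a gene and not between genes, since probes differ in brightness. The 8 arrays had medians from 4.89 to 5.01, and in each mouse the tumor array had the higher median. The adjacent sample of M48 stood somewhat apart, with a mean correlation of 0.988 to the other adjacent arrays, against 0.992 or 0.993 for each of them, so values without M48 are given too.

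Tmem54, the membrane protein gene, stood at 9.47, 9.54, 8.06 and 8.92 in the tumors of M24, M48, M50 and M60, against 3.78, 4.15, 3.87 and 3.58 in the adjacent liver of the same mice in that order. The 4 tumors lay far above all 4 adjacent samples, with 3.92 between the lowest tumor and the highest adjacent value. The means were 8.996 ± 0.68 in tumors and 3.85 ± 0.24 in adjacent liver (SD, n = 4 each). The mean difference of 5.15 ± 0.65 (SD, n = 4 pairs) corresponds to 35.5-fold. All 4 adjacent values lay under the filter value, near the mean of the left-out genes. The level in adjacent liver therefore cannot be told from background, and the fold is uncertain.

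Gldn, the gliomedin gene, showed the same picture of a level near background in adjacent liver. It stood at 8.76, 8.06, 7.89 and 8.53 in the tumors of M24, M48, M50 and M60, against 3.60, 3.84, 3.71 and 3.90 in their adjacent liver. Its 4 adjacent values spanned 0.30, the narrowest of the 5 genes, and its 4 tumor values spanned 0.87. The means were 8.31 ± 0.40 in tumors and 3.76 ± 0.13 in adjacent liver, with a difference of 4.55 ± 0.46 (23.4-fold). The smallest difference, 4.18 in M50, and that of M48, 4.22, lay below the 5.16 of M24.

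D17H6S56E-5 was measurable in adjacent liver as well. Its values were 9.93, 10.54, 8.45 and 9.65 in the tumors of M24, M48, M50 and M60, against 5.21, 5.95, 5.20 and 4.79 in adjacent liver. Both groups spread widely, by 2.09 among tumors and 1.16 among adjacent samples, and they did not overlap. The difference averaged 4.36 ± 0.74 (20.5-fold) and was 3.25 in M50 against 4.59 to 4.86 in the other mice. The tumor of M50 was the lowest of the 4 for this gene, for Tmem54 and for Gldn.

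Sprr1a, the small proline-rich protein gene, varied most among the tumors. Its levels were 8.49, 10.05, 9.11 and 7.44 in the tumors of M24, M48, M50 and M60, against 4.18, 4.66, 4.71 and 4.22 in their adjacent liver. The tumors spanned 2.62, and their order differed from that of the previous genes, with M48 highest and M60 lowest. The means were 8.77 ± 1.10 in tumors and 4.44 ± 0.29 in adjacent liver. Its difference of 4.33 ± 0.89 (20.1-fold) ran from 3.22 in M60 to 5.39 in M48 and was 3.97 without M48. In adjacent liver 2 of 4 values lay under the filter value.

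Elapor1, the endosomal and lysosomal protein gene, had the most even difference of the 5. Its levels were 8.78, 9.60, 9.39 and 9.07 in the tumors of M24, M48, M50 and M60, against 4.74, 5.66, 5.08 and 4.86 in adjacent liver. The mice ranked alike in both tissues, with M48 highest, then M50, M60 and M24. The difference was 4.12 ± 0.17 (17.4-fold), with 3.94 in M48 and 4.31 in M50 at its ends. Over the tested genes, 35.4% had a smaller SD of the difference than Elapor1, against 89.8% for Gldn, 95.9% for Tmem54, 97.1% for D17H6S56E-5 and 98.3% for Sprr1a.

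**Figure D1:**
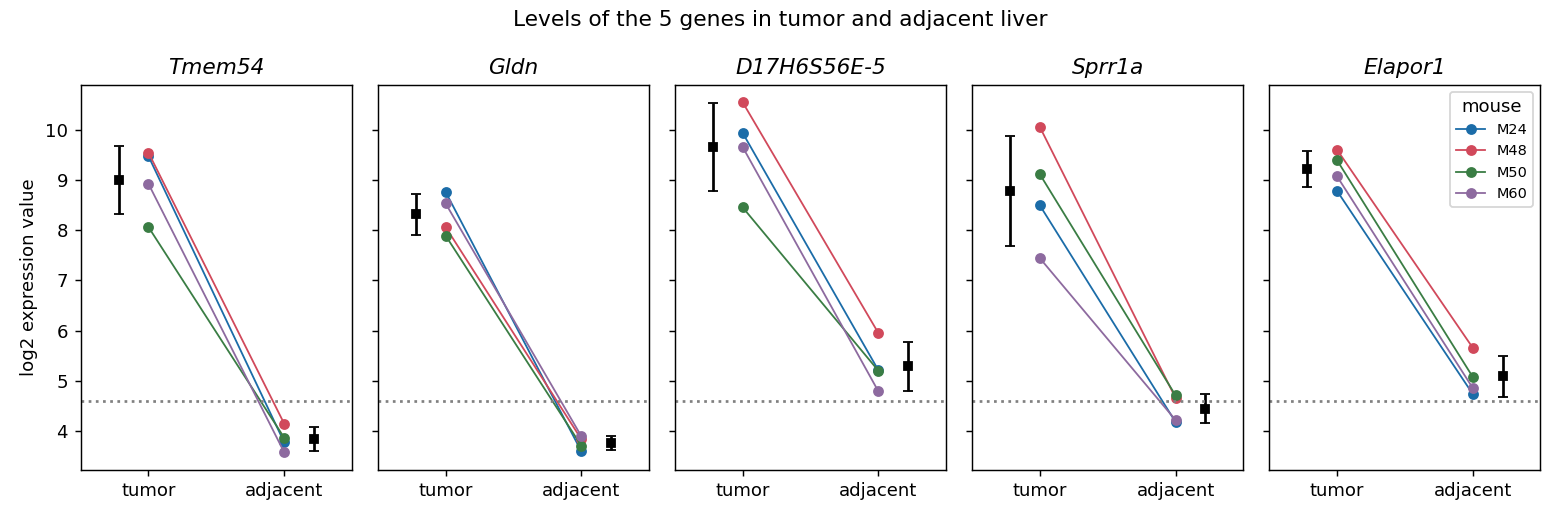
Log2 expression values of the 5 genes in tumor (left) and adjacent liver (right), with 1 point per sample, a line joining the samples of each mouse, and black squares with bars for the mean and SD of 4 samples. The dotted line marks the filter value of 4.597; every tumor value lies above it, and all adjacent values of Tmem54 and Gldn lie below it.

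In each of the 5 genes all 4 tumors lay above all 4 adjacent samples, which 14.9% of the tested genes also showed. All 5 passed the filter and had an adjusted p under 0.05 in the limma fit, as did 16.3% of tested genes in that direction. Since the genes were picked from this contrast, nothing is read from these counts. The means over both tissues of Tmem54, Gldn and Sprr1a passed the filter only through their tumor values. A rise of at least 4 was seen in 18 tested genes, 0.15% of them, so Elapor1 at 4.12 stood close to that edge with Cdh1 (4.06) next but outside the 5. The differences without M48 were 5.07 for Tmem54, 4.66 for Gldn, 4.28 for D17H6S56E-5 and 4.19 for Elapor1.

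The mice did not rank alike across the genes. M50 had the smallest difference in Tmem54, Gldn and D17H6S56E-5, but the largest in Elapor1. M24 had the largest in Tmem54 and Gldn, M60 in D17H6S56E-5 and M48 in Sprr1a. M48 gave the highest tumor value in 4 of the 5 genes and the highest adjacent value in 3 of them, where 28.3% and 31.6% of tested genes had M48 highest. The median difference of the 5 genes ran from 4.20 in M50 to 4.72 in M24.

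**Figure D2:**
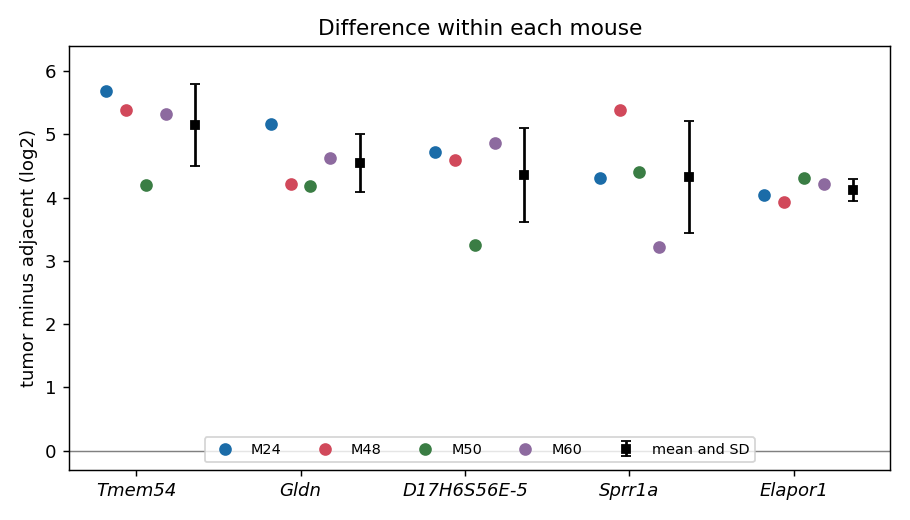
Tumor minus adjacent difference (log2) of each of the 5 genes in the 4 mice, coloured by mouse, with black squares and bars for the mean and SD over 4 mice. The points of Elapor1 lie between 3.94 and 4.31, and those of Sprr1a between 3.22 and 5.39.

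The pattern over the 8 arrays was compared by the distance between profiles, each centred on its own mean, where 0 would be an identical profile. The shared gap between tissues sets most of this distance, so the values are a description. Tmem54 and D17H6S56E-5 were each other's nearest gene among all tested ones, at 1.3. Gldn was second nearest to Tmem54, at 1.39, and the lipid enzyme gene Scd2 followed, at 1.7. Gldn itself lay nearest to Scd2 (0.984), then to Cdh1, the E-cadherin gene (1.09), and to Itih5 (1.27), which encodes a hyaluronan-binding matrix protein. Next to D17H6S56E-5 after Tmem54 came the basement membrane gene Nid1 (1.46) and Gldn (1.68).

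Elapor1 was closest to Elovl7, a fatty acid elongase gene, at 0.822, followed by Nid1 (0.93) and the annexin gene Anxa2 (1.07). Sprr1a had no gene as near: Elovl7 and Elapor1 both stood at 1.6 and Tmc5 at 1.89. Among the 5 genes, the distances thus set Tmem54, D17H6S56E-5 and Gldn at 1.3 to 1.68 from each other, and Sprr1a at 2.25 to 2.5 from these 3. Elapor1 lay 1.56 to 2.08 from the same 3.

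The surroundings of each gene were examined next, because position was not used to choose them. The 5 nearest measured genes on each side gave 50 neighbours, 22 of which passed the filter. Of these 22, 6 rose and 5 fell, beside 16.3% higher and 15.7% lower over all tested genes, and the median difference of the 50 was -0.04. Adjusted p-values here and below are those of limma with the mouse as a block, by Benjamini-Hochberg over all 11963 genes. Without M50 or without M60 the count of lower neighbours was 2, without M48 it was 3, and with no replicate block it was 3.

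Around Sprr1a, which lies in the epidermal differentiation complex, 0 of 10 neighbours passed the filter. Sprr3 and Sprr4, on either side, differed by -0.07 and -0.03, and involucrin (Ivl), another cornified envelope protein, by 0.32. The 11 measured Sprr genes besides Sprr1a differed by -0.10 to 0.25. Their highest level in any array was 4.67, in Sprr1b, which was at 4.12, 4.12, 4.67 and 4.03 in tumors and 3.85, 3.91, 3.93 and 4.26 in adjacent liver. The members of the family are close relatives in sequence, but the rise of Sprr1a was not seen by the probes of these measured relatives. Sprr2a1, Sprr2a2 and Sprr2a3 had no probe of their own with a single symbol and were not measured. Whether the Sprr1a probe also binds RNA of relatives was not tested.

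Gldn overlaps Gldnos, a long noncoding RNA gene annotated at chr9:54268580-54301570. Gldnos stood at 3.78, 3.81, 3.64 and 3.55 in the tumors of M24, M48, M50 and M60, against 3.71, 3.64, 3.68 and 3.64 in adjacent liver. These values overlapped and lay near the mean of the left-out genes in both tissues, with a difference of 0.03. Dmxl2, 23380 bases beyond the other end of Gldn, fell by 1.5 (SE 0.272, adjusted p = 0.00779). On the opposite side from Dmxl2, 468324 bases from Gldn, the solute carrier gene Slc35f2 rose by 2.52 (SE 0.182, adjusted p = 0.000377). It stood at 7.31 ± 0.58 in tumors and 4.79 ± 0.77 in adjacent liver. Idh3a, a subunit of isocitrate dehydrogenase, fell by 0.53 (adjusted p = 0.021), a call lost with no replicate block (0.0856) and on leaving out M24 (0.0734), M50 (0.0785) or M60 (0.0861).

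D17H6S56E-5 lies 132 bases from Vars, the valyl-tRNA synthetase gene, and the stretch searched before its start reaches into Vars. Vars stood at 7.91, 8.62, 8.04 and 8.09 in the tumors of M24, M48, M50 and M60, against 7.32, 7.59, 7.36 and 7.42 in adjacent liver. The groups did not overlap, and the rise was 0.74 (SE 0.101, adjusted p = 0.00288), far smaller than that of D17H6S56E-5. The chloride channel protein gene Clic1 rose by 0.91 (SE 0.103, adjusted p = 0.00156). Lsm2 of the splicing machinery rose by 0.32 (adjusted p = 0.0352), but its call was lost without any of the 4 mice (0.0656 to 0.124), with no replicate block (0.0782), with quantile normalization (0.0714) and with median centring (0.0709). The heat shock gene Hspa1a (-0.06) and Neu1 (0.12) did not pass.

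Over a wider list of 34 MHC class III genes, 31 were measured and 24 tested, of which 7 rose and 3 fell, or 29.2% and 12.5% beside 16.3% and 15.7% of all tested genes. The median was 0.08, beside 0.001 over all tested genes. Besides Lsm2, the calls of Ddah2 (higher) and Skiv2l (lower) were lost without M50 (0.129 and 0.0535) and without M60 (0.161 and 0.0718), and that of Ddah2 also without M48 (0.129), with no filter (0.0593), with quantile normalization (0.0596) and with median centring (0.0559). Lymphotoxin beta (Ltb) rose by 2.03 (SE 0.274, adjusted p = 0.00283), apolipoprotein M (Apom) by 0.91 (adjusted p = 0.00195) and Tnf by 0.70 (adjusted p = 0.00626). The adjacent mean of Tnf lay under the filter value, so Tnf, counted among the 7 rises, passed the filter through its tumor values. The complement gene C4b fell by 0.51 (adjusted p = 0.0073). Among the others of the region, C2 (-0.01) and Cfb (-0.03) of the complement system did not pass. The largest difference among the measured genes of the list was that of Ltb. D17H6S56E-5, at 4.36, was chosen for its rise, so nothing is read from its place above them.

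Around Elapor1, Psrc1, which encodes a protein of the mitotic spindle, rose by 1.73 (SE 0.193, adjusted p = 0.00149), with 6.03 ± 0.62 in tumors and 4.30 ± 0.15 in adjacent liver, which is under the filter value. Psrc1, counted among the 6 rises of neighbours, thus passed the filter through its tumor values. The seryl-tRNA synthetase gene Sars, 10419 bases away, rose by 0.40 (adjusted p = 0.0117, and 0.0584 without M60). Clcc1 fell by 0.69 (adjusted p = 0.00289), while 1700013F07Rik, 838 bases from the annotated start of Elapor1, was at 3.90 ± 0.13 in tumors and 3.87 ± 0.01 in adjacent liver. Around Tmem54, 6 neighbours were tested and 2 passed, both lower. Rnf19b fell by 0.34 (adjusted p = 0.0351) and S100pbp by 0.39 (adjusted p = 0.0375). Both calls were lost without M48 (0.0973 for Rnf19b, 0.0963 for S100pbp), without M50 (0.0988 and 0.132) and without M60 (0.116 and 0.129). That of Rnf19b was also lost with no replicate block (0.0931) and with no filter (0.0515). Hpca, which overlaps the end of Tmem54, was not tested and differed by -0.23.

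**Figure D3:**
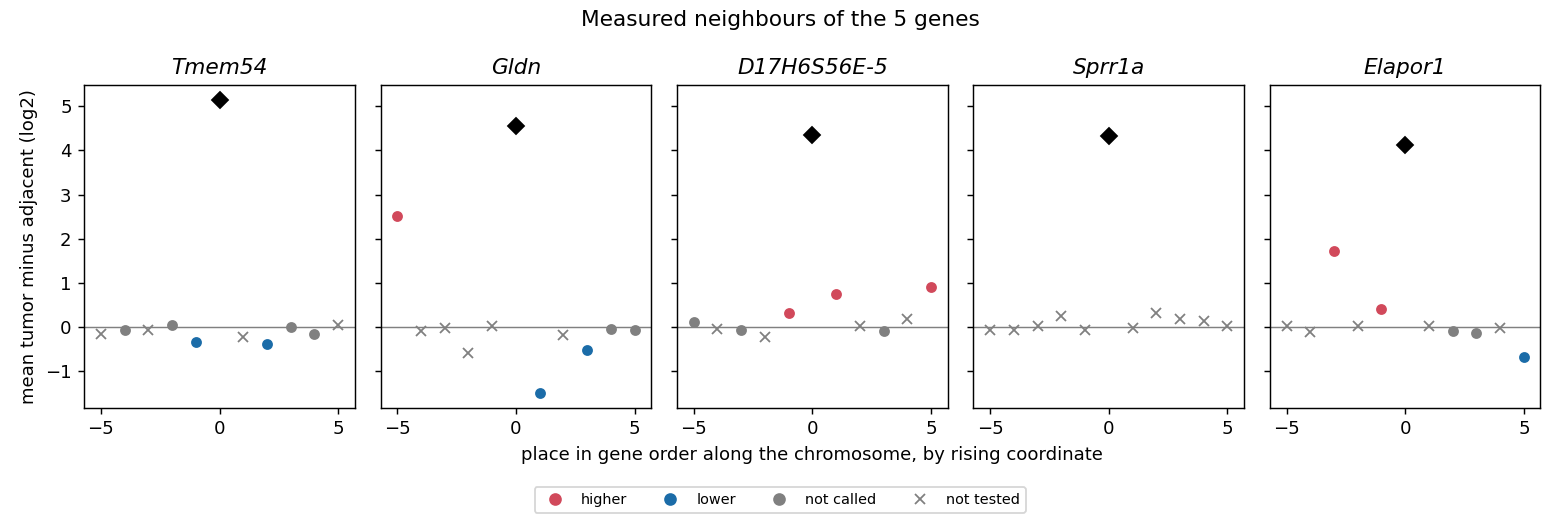
Mean tumor minus adjacent difference (log2, 4 mice) of the 5 measured genes on each side of each of the 5 genes, in chromosome order, with the gene itself as a black diamond at place 0. Red and blue points had an adjusted p under 0.05, grey points did not, and crosses were below the filter; the highest neighbour is Slc35f2 at 2.52, beside Gldn at 4.55.

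Genes related to the 5 by pathway, family or locus were taken from lists of 134 measured genes, each counted once, of which 86 were tested. The MHC class III list above, related by locus, is among them, with 31 measured and 24 tested genes, 7 rises and 3 falls. In all 22 rose and 12 fell, which is 25.6% and 14% of those tested, beside 16.3% and 15.7% of all tested genes. The lists were put together with earlier results of these data known, and their counts are given as descriptions.

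Components of the node of Ranvier were mostly low in liver. The list of 11 measured genes also holds the proteases Furin and Bmp1, and both were among the 5 that were tested. Of these 5, 3 rose and 0 fell, beside 16.3% higher and 15.7% lower over all tested genes. The 3 that rose were the other tested genes, Scn8a, Cntnap1 and Ank3. The median was 0.04, the value of Bmp1, over the 11 and 0.73 over the 5. The sodium channel gene Scn8a was at 5.59, 5.49, 5.50 and 5.82 in the tumors of M24, M48, M50 and M60, against 3.60, 3.78, 3.56 and 3.72 in adjacent liver. Its groups did not overlap, and it rose by 1.94 (SE 0.0993, adjusted p = 0.000181). Cntnap1, the axonal partner of contactin at the junction beside the node, rose by 1.79 (SE 0.183, adjusted p = 0.00112), and the anchoring protein ankyrin-G (Ank3) by 0.73 (adjusted p = 0.0301). The call of Ank3 was lost without M24 (0.114), without M48 (0.0771) and without M60 (0.111). Scn8a and Cntnap1 had adjacent means under the filter value, so they were tested only because they were high in tumors.

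The receptors that gliomedin binds in nerve stayed near background in both tissues. Neurofascin (Nfasc) was at 4.29 ± 0.12 in tumors and 4.29 ± 0.06 in adjacent liver, and Nrcam at 3.79 ± 0.06 and 3.76 ± 0.09 in the same order, both under the filter value. The proteases Furin (0.17) and Bmp1 (0.04), which can cleave gliomedin, did not pass. Of 11 measured relatives with an olfactomedin domain 7 were tested, and 0 rose and 0 fell by limma. Over all tested genes 16.3% were higher and 15.7% lower, so a count this small says little of the family. Among the 7, 1 had an unadjusted p under 0.05, Olfm3 at -0.86 (adjusted p = 0.0811). Markers of Schwann cells were measured beside this: 5 of 8 were measured and 4 tested, Egr2 rose by 0.48 (adjusted p = 0.0444), and Sox10 stood at -0.01. Egr2 averaged 4.84 in tumors and 4.36 in adjacent liver, the latter under the filter value, so it passed the filter through its tumor values. The summed linear level of the 5 measured Schwann cell markers was 249 to 345 in tumors and 235 to 350 in adjacent liver.

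Genes of the cornified envelope, the usual setting of Sprr1a, were for the most part under the filter value. Of 25 measured genes 6 were tested, 2 rose and 0 fell, beside 16.3% higher and 15.7% lower over all tested genes, and the median was -0.03 over the 25 and 0.06 over the 6. The protease inhibitor cystatin B (Cstb) rose by 1.28 (SE 0.13, adjusted p = 0.00111) and periplakin (Ppl), a linker of keratin filaments, by 0.58 (adjusted p = 0.0191, and 0.0655 without M60). Transglutaminase 1 (Tgm1), which cross-links the envelope, did not pass at 0.05. Of 9 markers of squamous epithelium 0 passed the filter and 8 had means under the filter value in both tissues, among them Trp63 and Krt14. Krt5 was at 4.91, 5.50, 5.10 and 4.73 in the tumors of M24, M48, M50 and M60, against 3.78, 3.80, 4.20 and 4.05 in adjacent liver. The summed linear level of the 9 markers was 147 to 173 in tumors and 138 to 144 in adjacent liver, and their part in the values of Sprr1a was not tested.

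Among 15 tested genes of the response to injury, with which Sprr1a is known to rise in neurons, 5 rose and 4 fell, beside 16.3% higher and 15.7% lower over all tested genes, with a median of 0.13. Of the 4 falls, only that of Hspb1 held in every alternative run: Il6st, Socs3 and Lifr lost their calls in 5 or 6 of 11, among them no replicate block (0.0762, 0.216 and 0.118) and leaving out M24 (0.0833, 0.129 and 0.147). Of the 5 rises, that of Osmr was lost with no replicate block (0.132) and on leaving out M24 (0.0991), M50 (0.099) or M60 (0.0897). The transcription factor gene Atf3 was at 7.23, 7.16, 8.30 and 6.98 in the tumors of M24, M48, M50 and M60, against 5.90, 6.08, 5.67 and 5.53 in adjacent liver. It rose by 1.62 (SE 0.246, adjusted p = 0.00412) without overlap of the groups. Jun, a subunit of AP-1, rose by 0.82 (SE 0.141, adjusted p = 0.00644), the transcription factor Klf6 by 1.10 (adjusted p = 0.00257) and the hyaluronan receptor Cd44 by 1.02 (adjusted p = 0.00257). The small heat shock protein Hspb1 fell by 1.34 (adjusted p = 0.0115). Il6st, the shared receptor subunit of interleukin 6 family cytokines, fell by 0.40 (adjusted p = 0.0229), and its call was also lost without M48 (0.0545), without M60 (0.0541) and with quantile normalization (0.0512).

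For Elapor1, the transcription factor Mist1 and secretory cell genes gave 2 rises and 0 falls among 5 tested genes, beside 16.3% higher and 15.7% lower over all tested genes. The median was 0.08 over the 8 measured genes and 0.20 over the 5. Mist1 itself (Bhlha15) was at 5.80, 5.61, 5.33 and 5.75 in the tumors of M24, M48, M50 and M60, against 4.95, 4.16, 4.34 and 4.14 in adjacent liver. The groups did not overlap, and it rose by 1.22 (SE 0.148, adjusted p = 0.00195), passing the filter through its tumor values. Rab3d, a GTPase of secretory vesicles and a known Mist1 target in the stomach, rose by 0.85 (SE 0.104, adjusted p = 0.00207), while another such target, Rab26, was under the filter value and differed by -0.18. Xbp1, a regulator of secretory capacity, did not pass at 0.08. Among 6 measured markers of pancreatic acinar cells, Cela1 rose by 2.05 (SE 0.109, adjusted p = 0.00021), and Ptf1a, Cpa1, Prss2 and Cel were under the filter value in both tissues. Ctrb1, the other tested one, did not pass at 0.02. The summed linear level of the 6 was 267 to 415 in tumors and 135 to 158 in adjacent liver, and without Cela1 it was 76.5 to 88.4 in tumors and 82 to 87.4 in adjacent liver. Their part in the values of Elapor1 was not tested.

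Of 21 tested genes of lysosomes and autophagy 2 rose and 5 fell, beside 16.3% higher and 15.7% lower over all tested genes, with a median of -0.07. One of the rises, that of cathepsin D (Ctsd, 0.46), was lost without M24 (0.0835), without M50 (0.0617) and without M60 (0.0971). The autophagy genes Gabarapl1 (-1.17, SE 0.0976, adjusted p = 0.000569), Map1lc3a (-1.19, adjusted p = 0.00307) and Atg3 (-0.65, adjusted p = 0.00354) fell. The lysosomal channel Mcoln1 fell by 0.42 (adjusted p = 0.0121), and Lamp2 of the lysosomal membrane by 0.63 (adjusted p = 0.012, and 0.0539 without M60). The lysosomal hexosaminidase Hexa rose by 0.86 (SE 0.117, adjusted p = 0.00289). Elapor2, the relative of Elapor1, was at 3.25 in tumors and 3.32 in adjacent liver on average, under the filter value in both. Of 4 tested genes linked to estrogen response only cyclin D1 (Ccnd1) passed, with a rise of 2.86 (adjusted p = 0.000347), and the estrogen receptor Esr1 did not pass at -0.21 (adjusted p = 0.433).

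**Figure D4:**
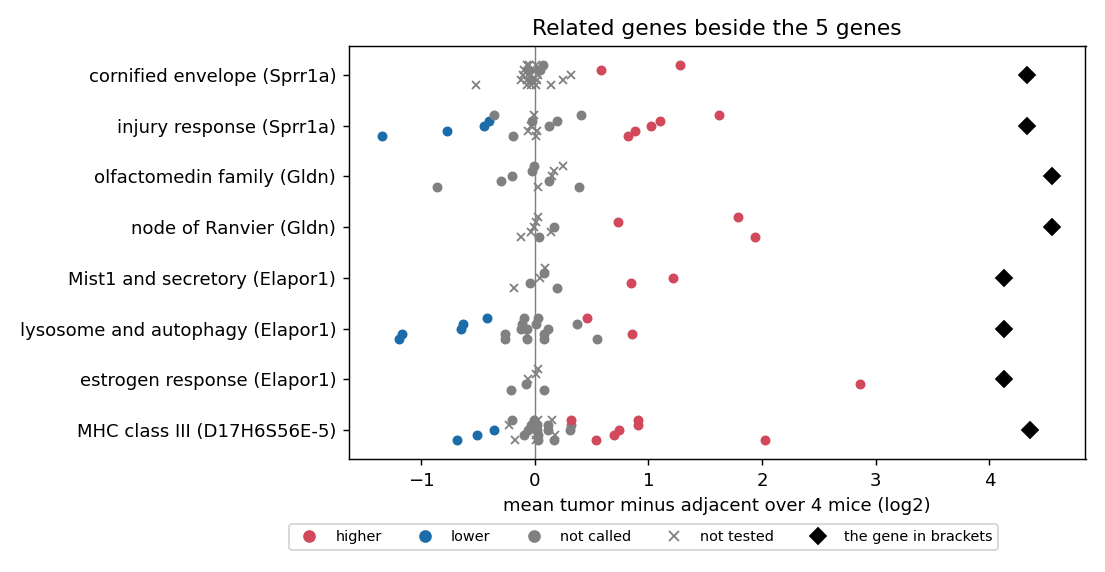
Mean tumor minus adjacent difference (log2, 4 mice) of the measured genes of 8 lists, each named with the gene it belongs to, which is drawn as a black diamond. Red and blue points rose or fell at an adjusted p under 0.05, grey points did not pass and crosses were not tested. The genes drawn as diamonds were chosen for their rises. Every listed gene lies left of the diamonds, and the highest is Ccnd1 at 2.86.

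Markers of other liver cells moved between the groups too, and in pieces of tissue a change in the number of cells of a type cannot be told from a change in RNA per cell. Among bile duct markers 2 of 5 tested genes rose and 1 fell, with Sox9 at 1.36 (adjusted p = 0.00106) and Krt7 not passing at 0.30. Their summed linear level was 349 to 630 in tumors and 313 to 371 in adjacent liver. Over all tested genes 16.3% rose and 15.7% fell. Stellate cell and endothelial markers each had 4 rises and 0 falls among 7 tested genes, macrophage markers 1 rise and 2 falls among 8, and T and natural killer cell markers 0 and 0 among 5 by limma, of which 4 had an unadjusted p under 0.05. The lowest adjusted p among these was 0.0626, for Nkg7 at 1.24. Their part in the values of the 5 genes was not tested.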

How the data were processed

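The 8 samples were grouped by their titles into 4 tumors and 4 adjacent livers, 1 pair per mouse. The authors deposited 1 table of values for 28874 probes. The values were taken as log2 from their range (1.92 to 14.5), since the log base of the deposited values is not stated. MAS5 is named, without a role, per the submitters' processing notes. Normalization, detection calls and batches are not stated in the sources used here. Gene names came from the platform annotation: 21789 probes had 1 symbol, 1621 had several and 5464 had none. Where several single-symbol probes shared a gene, the one with the highest mean was kept.

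Tests were run in limma 3.58.1 (R 4.3.3; lmFit, eBayes with a mean-variance trend), with the mouse as a block, since each mouse gave both tissues per the labels. There were 3 residual and 3.64 prior degrees of freedom. SE is that of the fit; p-values are two-sided, adjusted by Benjamini-Hochberg, with a threshold of 0.05, and "rose" or "fell" means past it. Deviations from group means correlated at 0.313, 0.421, 0.0986 and 0.111 between the tissues of M24, M48, M50 and M60, and at -0.378 to 0.189 between different mice. Data were also simulated for the same 11963 genes, with 200 of them changed. The noise was normal, with variances drawn from the prior of the fit. There the fit recovered 35.5% of 1.5-fold, 86.9% of 2-fold and 99% of 4-fold changes, with 4.84% false calls. Many more genes passed in the real data (1945 higher and 1874 lower), so these rates need not hold for them.

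The 5 genes, the lists and the motifs were chosen with earlier results of these data known. Named genes are the 5, their 3 nearest profiles, called neighbours, and up to 6 genes with the smallest p per list; other list members were added after their values were seen. Summed linear levels are sums of 2 to the power of the log2 value. Promoter sequences are from RefSeq (GRCm38.p6) and all 5 genes matched; of several transcript starts, the one nearest the annotated 5′ end of the gene was used, which can lie inside it. No set test was run.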

Additional observations from a re-analysis of the deposited data

Results flagged for a closer look

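Among 165 sets of 4 values (tumor levels, adjacent levels and differences of the named genes), 8 had a highest or lowest sample set apart from the other 3, and chance alone does so in about 1 set of 20. The difference of D17H6S56E-5 was 3.25 in M50, against 4.59 to 4.86 in the other mice. That of Elovl7, the gene nearest to Elapor1, was 3.04 in M24, against 4.24 to 4.47. In the tumor of M50, Itih5 was at 9.12, against 9.60 to 9.62 in the others, and Mcoln1 at 8.08, against 7.83 to 7.85. Clic1 was at 7.72 in the tumor of M60, against 7.92 to 7.96. The adjacent liver of M48 was high for Il6st (10.83, against 10.19 to 10.29), Osmr, the oncostatin M receptor (7.80, against 5.80 to 6.07) and Ctsd, the cathepsin D gene (11.52, against 11.00 to 11.08).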

How the results depend on the processing

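The mean differences of the 5 genes kept their sign and moved by less than the SD over mice under quantile normalization, median centring, averaging of probes and with each mouse left out. With a mouse left out they ran from 4.97 to 5.47 for Tmem54, 4.35 to 4.67 for Gldn, 4.19 to 4.72 for D17H6S56E-5, 3.97 to 4.70 for Sprr1a and 4.06 to 4.19 for Elapor1. The counts over all genes were 1945 higher and 1874 lower. With a mouse left out they ran from 1238 to 1759 and from 1071 to 1720 (lowest without M60). They were 1743 and 1799 with no replicate block, and 1673 and 2155 with median centring. Related genes numbered 16 to 21 higher and 8 to 11 lower with a mouse left out. Higher neighbours numbered 4 to 5 and lower neighbours 2 to 4, and with no replicate block 3 neighbours were lower; the cause was not tested. Of 42 related or neighbouring genes past the threshold, 27 passed in every alternative that tested them and 15 lost the call in at least 1, with 0 changes of sign. The paired fit was the main one because both tissues came from the same mice. With no detection calls, levels under the filter value, such as those of Tmem54 and Gldn in adjacent liver, limit how exactly a fold can be given.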
